A study of Rattus norvegicus with 9 samples.

Results

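The 10 genes described here mark macrophages, the phagocytes that live inside and around pancreatic islets: the complement genes C1qa, C1qb and C1qc, the scavenger receptor genes Cd68, Cd163 and Mrc1, the growth factor receptor gene Csf1r, the calcium-binding protein gene Aif1, and the signalling adaptor genes Tyrobp and Fcer1g. They were chosen by name, as the genes whose symbol is the only one annotated to a probe set, and all 10 of the 14217 genes so named on the array were found. They have 11 probe sets, since Aif1 has 2, and for that gene the probe set with the higher mean signal was used. Islets were taken from adult male Wistar rats, 7 weeks old at the start, that ate standard chow with 8% of calories as fat (4 arrays) or a cafeteria diet with 66% (5 arrays) for 30 days, and each array is described as an independent sample. The animals carried no stated genetic change. The diet field of the labels names the opposite diet for every array; groups here follow the sample titles, and with that field every sign below would turn.

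Macrophages of the islet depend on signalling through the Csf1 receptor, clear dying cells and secreted hormone, and present antigen. C1q, built from the products of C1qa, C1qb and C1qc, is the recognition subunit that starts the classical complement pathway and is made mostly by macrophages rather than by the liver. Tyrobp and Fcer1g encode small membrane adaptors with an activation motif that relay signals from receptors such as Trem2 and the Fc receptors to the kinase Syk. Several of the genes are shared with other cells: Fcer1g with mast cells and neutrophils, Tyrobp with natural killer cells, Mrc1 with some endothelial cells.

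In the RefSeq annotation of GRCr8 the 3 complement genes lie next to each other in the order C1qb, C1qc, C1qa, with no other annotated gene between them. RefSeq promoter sequences were found for 6 of the 10 genes. The 250 bases before the start are shown for the 2 C1q genes and for 2 of the scavenger receptor genes, because the comparison of complement with scavenger receptors runs through them. Capitals mark GAGGAA or its reverse complement TTCCTC, the core of sites bound by the myeloid transcription factor PU.1; this was the only motif searched, on both strands.
C1qb, GRCr8, chr5:154407828-154408077, minus strand: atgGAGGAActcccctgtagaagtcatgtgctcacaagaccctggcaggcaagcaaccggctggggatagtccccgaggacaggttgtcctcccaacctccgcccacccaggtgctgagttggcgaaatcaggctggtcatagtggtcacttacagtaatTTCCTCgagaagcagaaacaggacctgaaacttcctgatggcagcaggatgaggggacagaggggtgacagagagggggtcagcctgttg
C1qa, GRCr8, chr5:154419934-154420183, minus strand: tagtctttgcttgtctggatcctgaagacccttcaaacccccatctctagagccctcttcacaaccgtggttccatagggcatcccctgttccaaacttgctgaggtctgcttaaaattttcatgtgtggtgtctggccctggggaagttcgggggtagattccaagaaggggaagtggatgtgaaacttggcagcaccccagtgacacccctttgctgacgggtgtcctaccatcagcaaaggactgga
Cd68, GRCr8, chr10:54882442-54882691, minus strand: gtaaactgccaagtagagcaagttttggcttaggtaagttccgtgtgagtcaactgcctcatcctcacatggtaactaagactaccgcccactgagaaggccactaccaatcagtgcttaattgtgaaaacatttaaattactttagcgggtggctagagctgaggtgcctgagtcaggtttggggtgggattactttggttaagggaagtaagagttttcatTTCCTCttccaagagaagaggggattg
Mrc1, GRCr8, chr17:82157475-82157724, plus strand: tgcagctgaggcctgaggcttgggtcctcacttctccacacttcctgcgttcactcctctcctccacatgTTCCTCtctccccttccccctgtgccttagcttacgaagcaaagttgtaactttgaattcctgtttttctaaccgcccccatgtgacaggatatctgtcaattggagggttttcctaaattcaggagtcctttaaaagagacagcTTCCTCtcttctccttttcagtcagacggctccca

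The motif was present in 4 of the 6 promoters, against 23.3% of the 33469 promoters of the same length. It was found in those of C1qb, Cd68, Mrc1 and Csf1r, and not in those of C1qa and Cd163. C1qb has it at -247 and -90 from the start, Cd68 at -27, and Mrc1 at -180 and -35. A match is a run of letters and was not tested for binding, and a window without one says nothing about the factor.

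The arrays held islet RNA as labelled: the 10 endocrine genes listed had mean signals between 1590.3 and 43203.9. Array medians ranged from 146.9 (cafeteria replicate 1) to 166.6, with cafeteria replicate 3 next lowest at 147.3. Correlations between arrays ranged from 0.941 to 0.974. The ratio of the 3' to the 5' beta-actin probe set, a sign of RNA or labelling quality, lay between 2.79 (cafeteria replicate 1) and 5.63 (cafeteria replicate 3). Standard replicate 3 had the highest summed signal of lymphocyte genes, 3213.5. The other standard arrays had 712.4 to 1071.9 and the cafeteria arrays 609.5 to 833.0. The folds without standard replicate 3 are therefore given beside the main ones. Only 9 arrays were measured, which limits how small a difference can be seen.

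None of the macrophage genes passed the test between the diets after adjustment over all probe sets; most were slightly lower in cafeteria islets, with wide overlap. Limma's test, on log2(signal + 16), called 0 of 18625 probe sets (0%) at an adjusted p under 0.05, and 1080 (5.8%) had an unadjusted p under 0.05. Among the 10 genes, 7 passed the filter on dim signals and were tested, and 1 of those, C1qc, had an unadjusted p under 0.05. The signal was lower on average in cafeteria islets, as a log2 fold, for 9 of the 10 genes (7 of the 7 tested), where 51.9% of all probe sets tested were lower. The count was again 9 without standard replicate 3, but 7 without standard replicate 1 or without cafeteria replicate 1. With each array left out in turn it ranged from 7 to 10. Cd68, counted among the 9, had a fold near 0. The median log2 fold of the 7 was -0.186, against -0.00902 over all probe sets tested. Leaving out standard replicate 3 gave -0.0859, and leaving out cafeteria replicate 3 gave -0.0843. For none of the 10 were the groups free of overlap (0 genes), while 1.76% of all probe sets tested were; 0.762% had all cafeteria arrays below all standard arrays. Bulk islet RNA cannot tell fewer macrophages from less of a transcript in each.

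**Figure D1:**
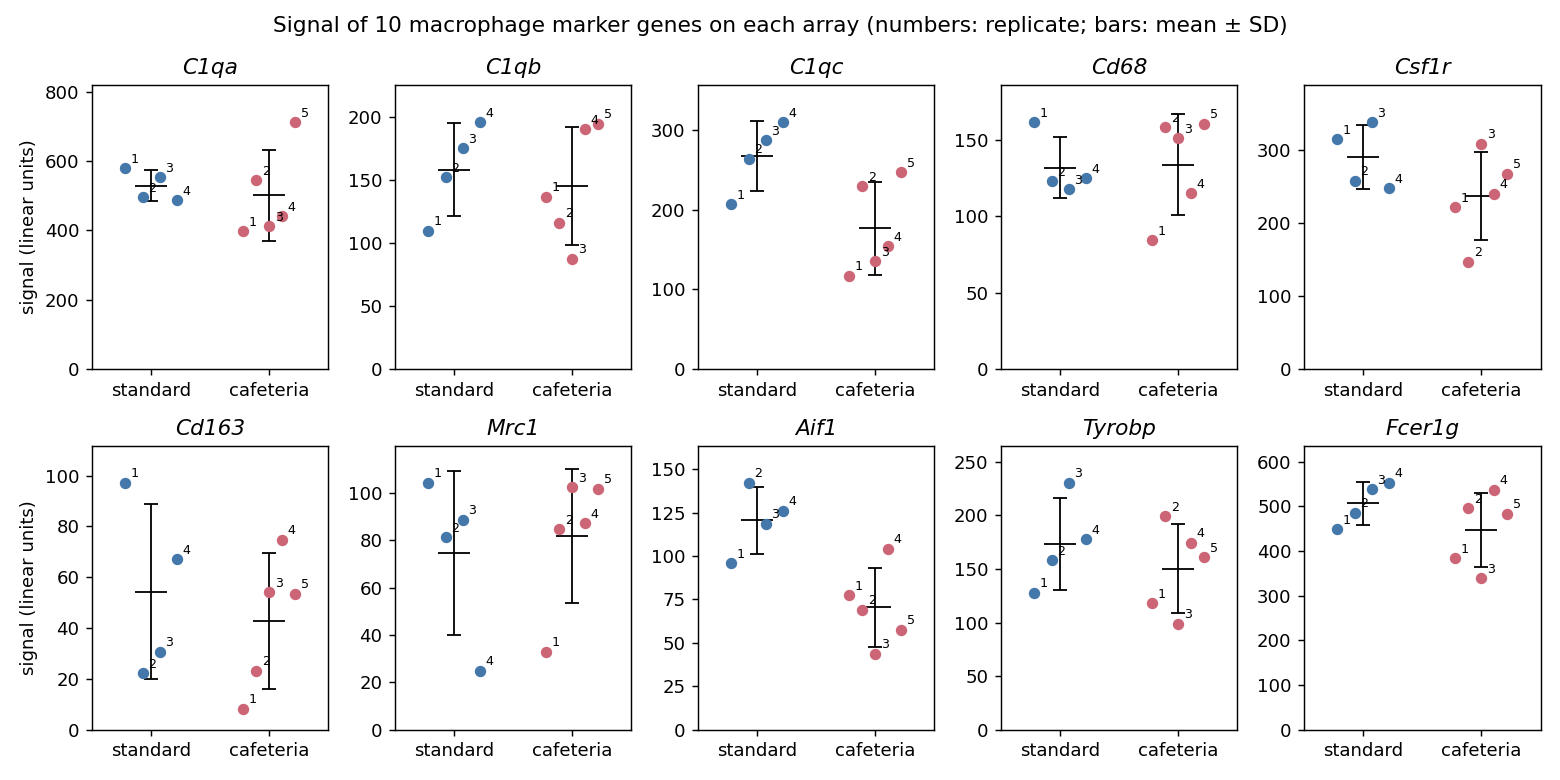
Linear signal of each gene on each array, in 10 panels with axes that start at 0; points are arrays numbered by replicate, and bars give the mean and SD of 4 standard and 5 cafeteria arrays. The groups overlap in every panel, and cafeteria replicates 1 and 3 are the lowest arrays in 4 panels each.

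The complement genes were the first group. C1qa, the A chain, had signals of 580.1, 495.0, 553.1 and 487.8 on standard replicates 1 to 4 and of 397.9, 545.0, 412.4, 440.2 and 713.1 on cafeteria replicates 1 to 5. The cafeteria arrays lay on both sides of the standard range, with 3 below and 1, replicate 5, above all standard arrays. The means were 529.0 ± 44.9 (SD, n = 4) and 501.7 ± 131.4 (SD, n = 5), and the log2 fold, cafeteria minus standard, was -0.10 ± 0.17 (SE; limma adjusted p = 0.944). It was -0.24 with cafeteria replicate 5 left out, and between -0.07 and -0.03 with standard replicate 1 or cafeteria replicates 1, 3 or 4 left out.

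C1qb, the B chain, had 109.7, 152.1, 174.9 and 195.9 on standard arrays and 136.6, 116.0, 87.3, 190.2 and 194.4 on cafeteria arrays. Its 2 groups covered nearly the same range, and only cafeteria replicate 3 fell below the lowest standard array. The log2 fold was -0.14 ± 0.25 (limma adjusted p = 0.950), with a 95% confidence interval from -0.68 to 0.41. Without cafeteria replicate 3 it was 0.008, and with any of standard replicates 1, 3 and 4 or cafeteria replicates 2, 4 and 5 left out it lay between -0.29 and -0.04.

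C1qc, the C chain, had the clearest separation of the 3. Its signals were 207.2, 264.1, 287.1 and 310.3 on standard arrays and 117.3, 229.4, 135.0, 154.0 and 247.3 on cafeteria arrays. Cafeteria replicates 1, 3 and 4 lay below all standard arrays, and standard replicates 2, 3 and 4 above all cafeteria arrays. The means were 267.2 ± 44.2 (SD, n = 4) and 176.6 ± 58.2 (SD, n = 5), a log2 fold of -0.59 ± 0.23 with a 95% interval from -1.09 to -0.10. The unadjusted p was 0.0219 and the adjusted p 0.839 by limma. The exact two-sided permutation p was 0.0635; the smallest that groups of 4 and 5 arrays allow is 0.00794. Leave-one-out folds ranged from -0.72 to -0.47, and standard replicate 3 left out gave -0.56.

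The C1q chains are assembled together, so the ratios between their signals were set side by side within each array, a comparison added after the values were seen. The log2 ratio of C1qa over C1qc was 0.96 ± 0.33 (SD, n = 4) in standard and 1.45 ± 0.16 (SD, n = 5) in cafeteria islets, a difference of 0.49. Its exact two-sided permutation p was 0.0317, and 0.0952 after Benjamini-Hochberg adjustment over the 3 ratios, so it did not pass. That adjustment does not cover the choice of the comparison after the values were seen, so the p-values of the ratios are description. C1qb over C1qc differed by 0.46 (exact permutation p = 0.127, adjusted 0.190) and C1qa over C1qb by 0.03 (exact permutation p = 0.905, adjusted 0.905). The 3 probe sets read different transcripts, so only the change of a ratio between groups can be read, not its level.

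The scavenger receptor genes came next. The mean signals of their probe sets lay at percentiles 24.0 (Cd163), 35.3 (Mrc1) and 46.7 (Cd68) of all probe sets; for C1qb, C1qc and C1qa the percentiles were 49.3, 56.0 and 72.1, which describes probe sets and not transcript levels. Cd68, a lysosomal glycoprotein of phagocytes, had 161.8, 123.1, 117.7 and 124.9 on standard arrays and 84.2, 158.3, 151.0, 115.1 and 160.6 on cafeteria arrays. Cafeteria replicate 1 was the lowest and standard replicate 1 the highest array, and the other arrays of both groups were mixed. The means were 131.9 ± 20.2 (SD, n = 4) and 133.8 ± 33.3 (SD, n = 5), and the log2 fold was -0.004 with a 95% interval from -0.48 to 0.48 (limma adjusted p = 0.999). Its sign turned with several settings, and leave-one-out folds ranged from -0.07 to 0.13.

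Cd163, the receptor for haemoglobin bound to haptoglobin, and Mrc1, the mannose receptor, did not pass the filter, which removed probe sets under the 40th percentile of mean log2 signal (a signal of about 91.1). Their intervals below come from the fit with no filter. Cd163 signals were 97.2, 22.3, 30.7 and 67.1 on standard arrays and 8.3, 23.2, 54.1, 74.8 and 53.5 on cafeteria arrays. Both groups were widely spread, with cafeteria replicate 1 lowest. The log2 fold was -0.27, with an interval from -1.22 to 0.68, and -0.42 without standard replicate 3. Leaving out standard replicate 1 gave 0.002, leaving out cafeteria replicate 1 gave 0.010, and the lowest value was -0.52, without standard replicate 2. Standard replicate 4 and cafeteria replicates 2 and 4, left out in turn, gave -0.15, -0.16 and -0.47.

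Mrc1 signals were 104.3, 81.3, 88.7 and 24.9 on standard arrays and 33.0, 84.6, 102.3, 87.1 and 101.8 on cafeteria arrays. In each group 1 array stood low, standard replicate 4 and cafeteria replicate 1, and the other 7 lay between 81.3 and 104.3. The log2 fold was 0.15 (interval -0.66 to 0.96), the only one of the 10 above 0 with these 9 arrays; it became -0.20 or 0.25 when standard replicate 4 or 3 was left out, and 0.38 when cafeteria replicate 1 was. Leaving out standard replicate 1 gave 0.32, and leaving out cafeteria replicates 3 and 5 gave 0.06 and 0.07.

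Complement and scavenger receptor genes were compared by the mean log2 signal of each trio, relative to the standard mean. The complement trio was lower by 0.28 in cafeteria islets (mean -0.28 ± 0.34, SD, n = 5, against a standard SD of 0.16, n = 4), and the scavenger trio had a mean of -0.04 ± 0.51 (SD, n = 5). The complement mean came mostly from C1qc, with a log2 fold of -0.59 against -0.10 for C1qa and -0.14 for C1qb. The scavenger mean joined opposite signs in genes below the filter, -0.27 for Cd163 and 0.15 for Mrc1, with -0.004 for Cd68. Complement minus scavenger receptors was -0.24 on average in cafeteria islets, with an SD of 0.48 (n = 5), against an SD of 0.51 (n = 4) among standard arrays. The difference was smaller than that spread, and it became -0.17, -0.11 or -0.487 when standard replicate 3, 4 or 1 was left out, and -0.0654 when cafeteria replicate 3 was. Single arrays differed in opposite ways: on cafeteria replicate 3 the complement trio stood at -0.65 and the scavenger trio at 0.27, while on cafeteria replicate 1 they stood at -0.54 and -0.91. With Cd68 alone, the only scavenger receptor gene above the filter, complement minus Cd68 was -0.28 in cafeteria islets with an SD of 0.36. Without standard replicate 3 this difference was -0.19. No test was run on these means.

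**Figure D2:**
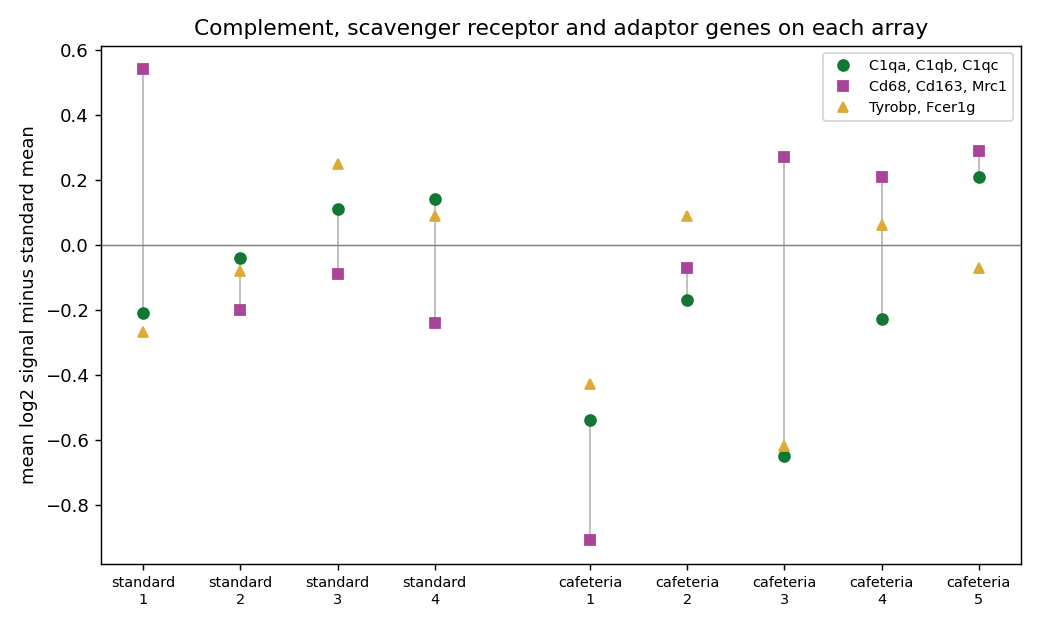
Mean log2(signal + 16) of the complement genes (circles), scavenger receptor genes (squares) and adaptor genes (triangles) on each array, minus the mean of the 4 standard arrays; grey lines join the first pair of trios. The spread among arrays of 1 diet, such as -0.91 to 0.29 for the scavenger trio in cafeteria islets, is larger than the mean difference between complement and scavenger receptors, -0.24.

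Csf1r encodes the receptor for Csf1 and Il34, on which macrophage survival rests. Its signals were 315.0, 258.2, 338.5 and 247.7 on standard arrays and 222.0, 146.7, 308.8, 240.0 and 267.5 on cafeteria arrays. Of the cafeteria arrays 3 lay below all standard arrays and 2 within their range, and replicate 2 was lowest. The means of 289.9 ± 43.9 (SD, n = 4) and 237.0 ± 60.2 (SD, n = 5) gave a log2 fold of -0.30 ± 0.20 (limma adjusted p = 0.859), and -0.15 without cafeteria replicate 2.

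Aif1, also known as Iba1, is an actin-linked calcium-binding protein used to stain macrophages. The main probe set had 95.8, 142.2, 118.7 and 126.1 on standard arrays and 77.5, 69.1, 43.7, 104.3 and 57.6 on cafeteria arrays. Cafeteria replicate 4 was the only cafeteria array that reached the standard range. The log2 fold of -0.69 was the lowest of the 10 genes, with an interval from -1.27 to -0.11, and leave-one-out folds ranged from -0.82 to -0.57. The exact two-sided permutation p was 0.0317, not adjusted over the 10 genes; the probe set lies at percentile 39.0 of mean signal, just under the filter, and with no filter its limma adjusted p was 0.888.

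The second Aif1 probe set did not show that difference. Its signals ranged from 8.7 to 104.5 on standard arrays and from 34.9 to 94.6 on cafeteria arrays. Here the standard arrays were the more scattered, and the log2 fold was 0.65 ± 0.43, opposite in sign to the first, with an exact permutation p of 0.222. At percentile 30.4 of mean signal it is the dimmer of the 2, and which of them follows Aif1 transcript better was not tested.

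Both adaptor genes were lower on average by less than the spread between arrays. Tyrobp, also called DAP12, had 128.0, 158.1, 230.6 and 177.7 on standard arrays and 117.9, 199.5, 98.9, 174.6 and 161.0 on cafeteria arrays. Standard replicate 3 was highest and cafeteria replicates 1 and 3 were lowest. The log2 fold was -0.20 ± 0.24 (limma adjusted p = 0.916), and -0.06 without standard replicate 3. It was -0.07 or -0.13 with cafeteria replicate 3 or 1 left out, and -0.32 or -0.30 with standard replicate 1 or cafeteria replicate 2 left out.

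Fcer1g, the common gamma chain of Fc receptors, had 449.3, 485.5, 538.4 and 553.1 on standard arrays and 384.5, 496.4, 339.0, 537.4 and 483.5 on cafeteria arrays. Again cafeteria replicates 1 and 3 lay below all standard arrays, and the other 3 within their range. The log2 fold was -0.19 ± 0.16 (limma adjusted p = 0.870), and -0.16 without standard replicate 3, but -0.09 without cafeteria replicate 3. Of the 7 genes tested Fcer1g varied least between arrays of 1 diet, with a residual SD of 0.22 log2 units, and C1qb varied most, with 0.39; these stand at percentiles 38.1 and 79.6 of all probe sets tested.

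**Figure D3:**
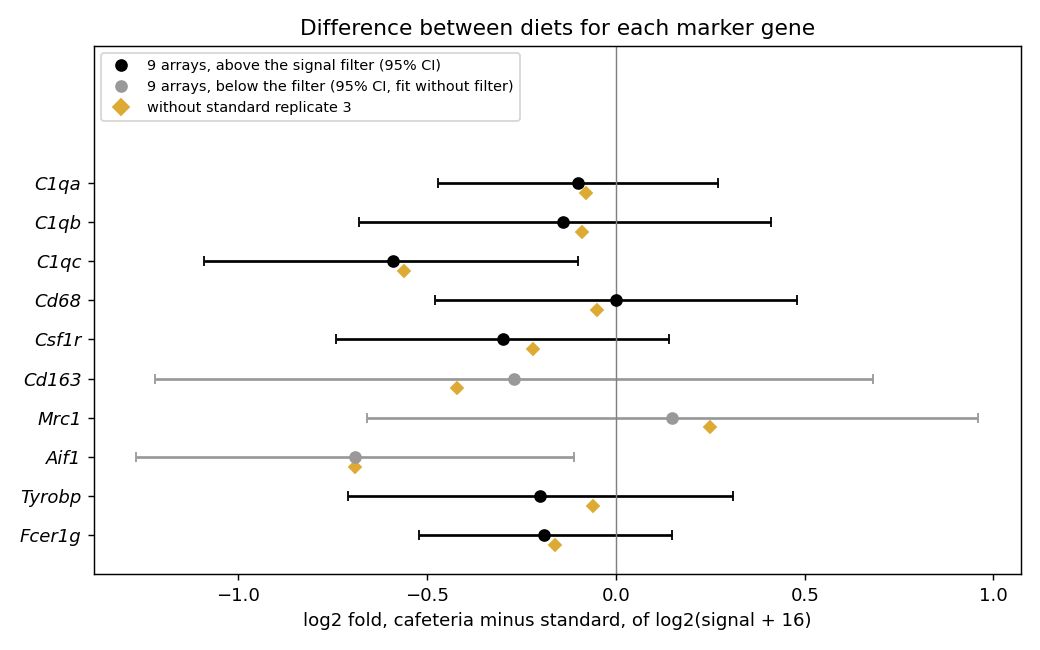
Log2 fold of cafeteria over standard for each gene with its 95% confidence interval, on a log2 axis; black marks genes above the signal filter, grey those below it, and diamonds the fold without standard replicate 3. The interval holds 0 for 8 genes and does not for C1qc (-1.09 to -0.10) and Aif1 (-1.27 to -0.11).

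Tyrobp and Fcer1g varied together over the 9 arrays. Of 6 pairs of genes compared, theirs was the one that passed, with a Pearson r of 0.90 (exact permutation p = 0.000529, adjusted 0.00317) and a Spearman rho of 0.90 (exact permutation p = 0.00203, adjusted 0.0122). It was 0.85 without standard replicate 3 and cafeteria replicate 3, the arrays farthest from the Tyrobp median, and 0.90 after the mean of each diet was subtracted. Both genes were low on cafeteria replicates 1 and 3, which have the lowest and the highest beta-actin ratio. Those arrays also had the lowest median signals, 146.9 and 147.3. The part of either in the marker values was not tested.

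The C1q chains were less alike. C1qa and C1qc had r = 0.67 (exact permutation p = 0.051, adjusted 0.153) and rho = 0.53 (exact permutation p = 0.148, adjusted 0.266), 0.63 without cafeteria replicates 1 and 5, and 0.73 after the diet means were subtracted. C1qb and C1qc had r = 0.49 (exact permutation p = 0.18, adjusted 0.36) and rho = 0.62 (exact permutation p = 0.0857, adjusted 0.257), with r = 0.31 without standard replicate 1 and cafeteria replicate 3. C1qa and C1qb had r = 0.31 (exact permutation p = 0.424, adjusted 0.511) and rho = 0.18 (exact permutation p = 0.644, adjusted 0.644), with r = 0.05 without cafeteria replicates 1 and 5. None of these passed.

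Among the receptor genes no relation passed either. Cd163 and Mrc1 had r = 0.31 (exact permutation p = 0.426, adjusted 0.511) and rho = 0.50 (exact permutation p = 0.178, adjusted 0.266), with r = -0.10 without standard replicate 2 and cafeteria replicate 1. Cd68 and Csf1r had r = 0.04 (exact permutation p = 0.916, adjusted 0.916) and rho = 0.32 (exact permutation p = 0.41, adjusted 0.492), with r = -0.37 without standard replicate 1 and cafeteria replicate 1.

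**Figure D4:**
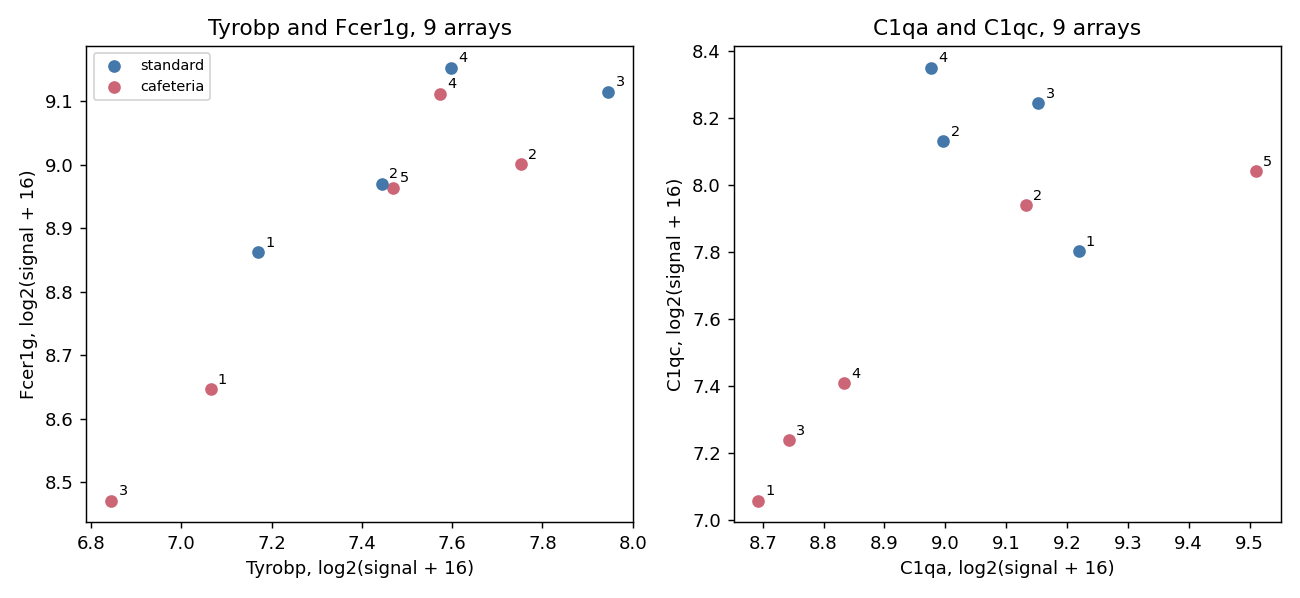
Log2(signal + 16) of Fcer1g against Tyrobp (left) and of C1qc against C1qa (right) on the 9 arrays, coloured by diet and numbered by replicate. The adaptor genes follow a line (r = 0.90), and the C1q chains scatter more widely (r = 0.67).

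The arrays were then ranked from low to high for each of the 10 genes. Cafeteria replicate 1 was lowest for C1qa, C1qc, Cd68 and Cd163, with a mean rank of 2.0 of 9 arrays, and cafeteria replicate 3 was lowest for C1qb, Aif1, Tyrobp and Fcer1g, with a mean rank of 3.5. Cafeteria replicate 2 had 4.6, so that 3 of 5 cafeteria arrays lay below the range of the standard arrays, 4.9 to 6.7. Cafeteria replicates 4 and 5, with 5.0 and 6.0, lay within it. The summed signal of the 10 genes was 2181.8 to 2478.5 on standard arrays, and 1579.2, 2068.3, 1732.5, 2117.5 and 2440.3 on cafeteria replicates 1 to 5. Genes with high signals weigh most in such a sum. Cafeteria replicate 1 also had the lowest summed signal of lymphocyte (609.5), endothelial (8572.7) and stellate and fibroblast genes (5868.5), and cafeteria replicate 3 the highest of acinar genes (10579.7). The part of these in the marker values was not tested.

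The genes most like the 10 in pattern were found by correlating 10340 other genes with the mean of the standardised signals over the 9 arrays, as a description. They were Ube2c, a ubiquitin-conjugating enzyme of mitosis (r = 0.93), Ifitm1, an interferon-induced membrane protein (0.91), Tnfrsf26 (0.90), Gimap4, a GTPase of lymphocytes (0.87), Dok3, an adaptor of immune cells (0.87), and Ltbp2, a matrix protein (0.86). After subtraction of the diet means r lay between 0.81 and 0.92. These genes were picked for the highest r among 10340 over 9 arrays. High values are therefore built in, before and after that subtraction, and are no test of a relation to the markers. Ifitm1 had 657.9 ± 129.3 (SD, n = 4) against 401.8 ± 135.3 (SD, n = 5), a log2 fold of -0.73 ± 0.23 (limma adjusted p = 0.839). The folds of the other 5 lay between -0.52 and -0.28; Ltbp2, Dok3 and Tnfrsf26 had 0.087, -0.28 and -0.31 without cafeteria replicate 1, Ltbp2 -0.45 and -0.58 without cafeteria replicates 4 and 5, and Tnfrsf26 -0.29 without standard replicate 3.

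Around the markers, genes of the same pathways were described from lists. The lists were chosen with earlier results of these data known, so their counts are description and not a test. Of all probe sets tested 51.9% were lower. In the classical complement list 12 of 18 named genes were tested and 7 were lower, with a median log2 fold of -0.04, and 6 were lower without standard replicate 3, where the median was near 0. Those tested also included C1qbp (0.13) and Calr (-0.03), which are not complement components. C3, the central component, had -1.20 ± 0.61 (-0.60 without standard replicate 1 and -0.71 without cafeteria replicate 1), Cfp, which stabilises the alternative convertase, 0.42 ± 0.21 (0.26 without standard replicate 2), and Cd59b, listed as Cd59, an inhibitor of the membrane attack complex, 0.24 ± 0.13. C1r and C1s, the proteases that join C1q, were named after their values were seen and had -0.31 ± 0.20 and -0.15 ± 0.17; C1s had -0.04 without standard replicate 3, -0.05 without cafeteria replicate 1 and -0.25 without standard replicate 2. In this list 0 genes passed limma's adjusted test and 0 had an unadjusted p under 0.05.

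The list of other scavenger receptors and endocytic lectins had a median of 0.03, with 5 lower and 6 higher of the 11 tested. Those tested also included Lamp1, Lamp2 and Hmox1, which are not such receptors or lectins. Without standard replicate 3 the median was -0.03 and 6 were lower. Leave-one-out medians ranged from -0.07 (standard replicate 4) to 0.12 (cafeteria replicate 1). Scarb2, a lysosomal receptor, had 0.28 ± 0.12, Scara3 -0.32 ± 0.23 (-0.15 and -0.48 without standard replicates 2 and 4) and Scarb1, the HDL receptor, -0.20 ± 0.15. The Csf1 receptor axis and macrophage transcription factors had a median of -0.23, with 8 of 10 lower, and -0.11 without the pair of arrays with the highest beta-actin ratio of each diet. Il34, the second ligand of Csf1r, had -0.36 ± 0.21 (-0.23 without standard replicate 1). Id3 had -0.50 ± 0.26 (-0.28 without cafeteria replicate 3) and Cebpb -0.33 ± 0.21 (-0.20 and -0.21 without standard replicate 2 and cafeteria replicate 3). Csf1, the first ligand, named after its value was seen, had 0.08 ± 0.13, with leave-one-out folds from -0.003 (standard replicate 2) to 0.196 (standard replicate 4), and 0.06 without standard replicate 1. ITAM receptors and kinases, the partners of the adaptors, had a median of -0.10, with 6 of 7 lower and leave-one-out medians from -0.26 (cafeteria replicate 4) to -0.03 (cafeteria replicate 1), and -0.19 without the beta-actin pair. Sirpa, an inhibitory receptor of macrophages, had -0.66 ± 0.24 (-0.54 without standard replicate 3). The phosphatase Inpp5d had -0.39 ± 0.25 (-0.24 without that array). The kinase Lyn had -0.19 ± 0.20 (-0.05 without standard replicate 3 and -0.29 without standard replicate 4). None of these genes passed limma's test (adjusted p of 0.839 to 0.943).

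The other macrophage and myeloid markers had a median of -0.42, with 15 of 19 lower, 8 of them at an unadjusted p under 0.05, where 2.79% of all probe sets tested were lower at that level. Without standard replicate 3 the median was -0.19, and 3 genes were lower at that level, where 1.89% of all probe sets tested were. Since this list was chosen with earlier results known, these counts beside those shares are not a test. Cyba and Cybb, the 2 chains of the phagocyte oxidase's membrane core, had -0.73 ± 0.18 and -0.57 ± 0.20, and Rac2, its GTPase, -1.65 ± 0.47 (-1.05 without standard replicate 3). Adjusted p-values by limma were 0.839 for all 3. Other genes of the list, named after their values were seen, differed widely. Ptprc, Laptm5 and Cd53 had -0.98, -0.89 and -0.90, while Cx3cr1, Ctss, Lgmn, Mpeg1 and Gpnmb had -0.04, -0.01, 0.01, 0.03 and 0.51. The summed signal of the list was highest on standard replicate 3 (16685.2), as that of lymphocyte genes was. Whether lymphocytes had a part in these folds was not tested.

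MHC class II genes had a median of -0.65, with 7 of 8 lower, and -0.41 without standard replicate 3. Cd74 had -0.95 ± 0.22 (-0.68 without that array), RT1-Da -0.79 ± 0.26 (-0.55 without it) and RT1-Db1 -0.82 ± 0.30 (-0.59 without it). Cytokines of classical activation were mostly under the filter; 4 of 17 named genes were tested, all 4 lower, with a median of -0.56. The chemokine genes Cxcl10, Ccl4 and Ccl2 had -0.64 ± 0.24, -0.48 ± 0.22 and -0.73 ± 0.38 (-0.49 without standard replicate 3). Genes of alternative activation had a median of -0.04, with 4 of 6 lower and a lowest leave-one-out median of -0.10 (standard replicate 2); Tgfb1 had -0.58 ± 0.21, Klf4 -0.29 ± 0.18 (-0.13 and -0.46 without standard replicates 1 and 4) and Ccl22 0.46 ± 0.29 (0.29 and 0.26 without the same). Of these 3 lists 0 genes passed limma's adjusted test. At an unadjusted p under 0.05, 5, 1 and 1 were lower, where 2.79% of all probe sets tested were. Without standard replicate 3 the counts were 2, 1 and 1, where 1.89% of all probe sets tested were. The lists were chosen with earlier results known, so these counts are not a test.

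**Figure D5:**
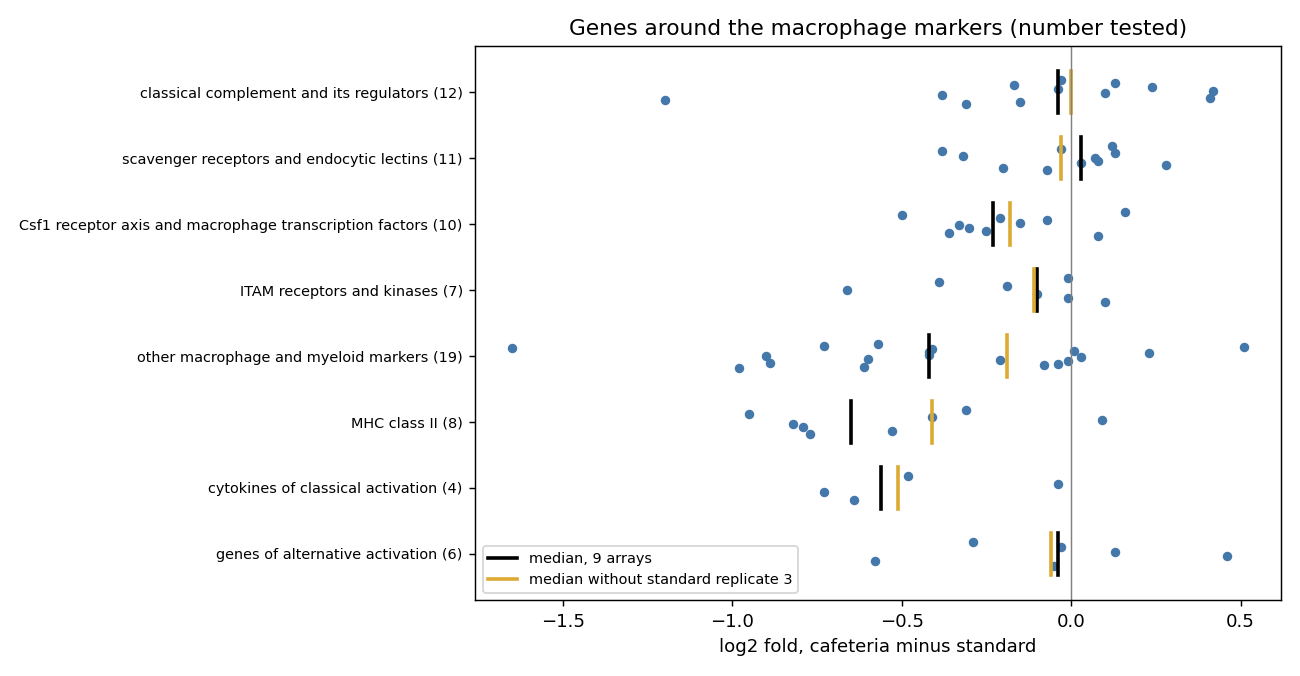
Log2 fold of cafeteria over standard for each gene above the signal filter in 8 lists of genes related to the macrophage markers; black bars are the medians over 9 arrays and yellow bars those without standard replicate 3. Medians were -0.65 for MHC class II genes, -0.56 for cytokines of classical activation and -0.42 for other myeloid markers. Without standard replicate 3 they were -0.41, -0.51 and -0.19. The Csf1 receptor axis had -0.23, and -0.18 without that array. The complement list (-0.04) and the scavenger receptor list (0.03, and -0.03 without that array) lay nearer to 0.

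Markers of other cells that could share these genes were read beside them. For mast cells, which use Fcer1g, 3 of 7 named genes passed the filter, with a median of 0.04 (-0.25 to 0.19 without standard replicate 1 or 2, and -0.29 without the pair of arrays with the highest beta-actin ratios) and summed signals of 390.7 to 614.7 on standard and 402.9 to 650.7 on cafeteria arrays. Their receptor chains Fcer1a and Ms4a2 were dim, with mean signals of 38.5 and 28.8. For neutrophils 1 of 4 named genes passed (0.37; 0.19 and 0.21 without standard replicate 2 and cafeteria replicate 5), with sums of 228.6 to 356.7 and 183.3 to 451.4. Lymphocyte genes had a median of -0.63 over 2 of 11 tested, and -0.32 without standard replicate 3. Acinar genes had 0.49 (10 of 11 higher; 0.34 without standard replicate 3), with leave-one-out medians from 0.27 (standard replicate 4) to 0.78 (cafeteria replicate 5). Endothelial genes had -0.11, with leave-one-out medians from -0.16 (standard replicate 3) to -0.06 (cafeteria replicate 1), and -0.21 without the beta-actin pair. The medians of the remaining lists, like that of mast cells, changed sign with single arrays left out. Duct genes had -0.15, and -0.41 to 0.06 without standard replicate 4 or 1, with -0.29 without standard replicate 3 and 0.08 without the beta-actin pair. Stellate and fibroblast genes had 0.01, and -0.11 to 0.12 without standard replicate 1 or cafeteria replicate 1. Erythroid genes had 0.06, and -0.24 to 0.25 without cafeteria replicate 5 or 3. Endocrine genes had 0.07, and -0.04 to 0.14 without standard replicate 3 or 1. The part of these cells in the marker values was not tested.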

How the data were processed

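RNA of 9 islet samples was hybridised to a single-colour Affymetrix rat array. The deposited file gives linear intensity signals, 1 for each of 31099 probe sets. The authors used MAS5, as the submitters' processing notes record; its version and settings were not given in these sources. After 2% was trimmed from each end, all array means were 500, so no further scaling was applied. MAS5 treats each array alone, which leaves dim signals noisy. The 57 control probe sets were left out. In the platform annotation 20826 of the other 31042 have 1 gene symbol, 436 several and 9780 none; only the first were named.

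Tests used log2(signal + 16), which understates the change of dim genes. The limma 3.58.1 model (R 4.3.3) held diet alone, with an intensity trend, and p-values were adjusted by Benjamini-Hochberg across the 18625 probe sets at or above the 40th percentile of mean log2 signal. The fit was also run on simulated data with independent noise and folds larger than those of the markers. That run does not show how well differences as small as theirs can be found. Exact permutation tests of a difference used every split of the arrays, and those of a correlation every pairing of the values, in Python 3.11.15. P-values measure the spread between these arrays.

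The members and lists were chosen with earlier results of these data known. The text names the 10 markers, up to 3 genes with the smallest unadjusted p of each pathway list, the 6 genes most alike in pattern, and others said to be named after their values were seen. A gene's main probe set is the one with the highest mean signal. Alternatives were pseudocounts of 1 and 64, quantile and median normalisation, a filter at the 60th percentile or none, each array left out, the replicate block, no trend, array weights and the mean over a gene's probe sets; leaving out standard replicate 1 and cafeteria replicate 3, the highest beta-actin ratio in each group, was added after the data were seen.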

Additional observations from a re-analysis of the deposited data

Results flagged for a closer look

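In cafeteria islets the Mrc1 signal of replicate 1, 33.0, stood far from the other 4 arrays of its group: the gap to the nearest was 0.816 of the group's range, above Dixon's 95% critical value of 0.71 for 5 samples. It was the 1 flag among the 20 groups of values tested, and chance alone flags about 1 in 20.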

How the results depend on the processing

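No marker passed limma's adjusted threshold wherever it was tested, in 134 of 190 combinations of a gene and an alternative (lowest adjusted p = 0.415). The 60th percentile filter tested 2 of the 10 genes, Aif1 was tested in 4 of 19 alternatives, and Cd163 and Mrc1 in 1 each, with no filter. Over all probe sets 0 were called, except that 2 were when standard replicate 2 was left out, so the leave-one-out counts ranged from 0 to 2. A marker's sign turned in 13 of 190 cases. Leave-one-out folds ranged from -0.287 to 0.008 for C1qb (turned without cafeteria replicate 3), from -0.071 to 0.133 for Cd68 (without standard replicate 1, 0.088, or cafeteria replicates 1 or 4, 0.133 and 0.036), from -0.519 to 0.010 for Cd163 (without standard replicate 1, 0.002, or cafeteria replicate 1) and from -0.197 to 0.382 for Mrc1 (without standard replicate 4). Cd68 also turned with pseudocount 64 (0.002), quantile (0.029) and median normalisation (0.036), array weights (0.010) and the high beta-actin ratio pair left out (0.041), and Cd163 with array weights (0.034). The cause was not tested. Of 627 cases for 33 other genes 2 turned, with leave-one-out ranges from -0.581 to 0.087 for Ltbp2 and from -0.003 to 0.196 for Csf1.

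Leave-one-out values of the markers' median fold ranged from -0.258 to -0.0843, of the number lower from 7 to 10, and of complement minus scavenger receptors from -0.487 to -0.0654. With median normalisation the markers' median fold was -0.143 and 8 genes were lower. The count of probe sets at an unadjusted p under 0.05 was 1717 with no filter, 1821 with array weights and 582 with the replicate block; leave-one-out counts ranged from 711 (standard replicate 3 left out) to 1674 (standard replicate 1), with 1655 for cafeteria replicate 1. Replicate numbers did not pair the arrays (correlations of deviations from -0.384 to 0.030); under the replicate block 0 probe sets were called, the median was -0.236, 9 genes were lower, and complement minus scavenger receptors was -0.277. Cafeteria replicate 5 has no standard array of the same number, so the folds under the replicate block repeat those found without it. Dim signals limit Cd163, Mrc1 and Aif1 most.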
